A study of Mus musculus with 48 samples.

Results

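The spleen IgM heavy chains of 24 mice were divided, within each mouse, by the number of bases at which the V segment differed from its assigned germline gene. Sequences with 0 mismatches formed the unmutated class, sequences with 2 or more formed the mutated class, and sequences with exactly 1 were left out. Of 4834214 deposited sequence rows in 48 libraries, 4645346 came from spleen and 3399074 of those were spleen IgM. The rule took 2541448 unmutated and 435873 mutated rows. After removal of nucleotide sequences that were identical in 3 or more spleens, which can be carried between libraries, 2432688 unmutated and 435481 mutated rows remained.

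All animals were C57BL/6 (B6) mice. The study asked how the antibody repertoire responds when the gut microbiota of an autoimmune-prone strain is transferred. In the NOD-FMT group (n = 10), B6 mice were given antibiotics and then faecal microbiota from NOD.B10.H2b mice, a strain with autoimmune dry eye, by gavage. In the PBS-T group (n = 9) the same schedule was followed with PBS in place of stool, and the NC group (n = 5) consisted of untreated B6 mice. Whole-spleen RNA was copied from the first constant domain with primers that carry a unique molecular identifier, so that each row is 1 consensus sequence with its count, and 1 library represents 1 animal. The cells were not sorted, so a larger number of B cells of one kind and more heavy-chain RNA per cell cannot be told apart. The libraries held between 86717 and 2302185 counts in all isotypes.

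IgM is the first isotype a B cell makes. Follicular and marginal zone B cells mostly carry it without V mutations, whereas IgM memory cells and plasma cells formed after activation can carry somatic hypermutation, the base changes that activation-induced deaminase starts in the rearranged V segment. Innate-like B-1 cells make natural IgM from a restricted set of rearrangements, often with few or no mutations. The third heavy-chain complementarity-determining region (HCDR3), where the V, D and J segments meet, is the most variable part of the antigen-binding site. A clonotype is here an IGHV gene, an IGHJ gene and an HCDR3 amino acid sequence, and unless stated otherwise each clonotype was counted once in each class of each mouse, whatever its count.

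The sequences below carry the main results. The first pair is a V gene stretch and the HCDR3 of the rearrangement that was held in mutated form by the most mice among genes that match the reference. The V stretch starts at the first base of CDR1, and its capitals mark positions where 1 substitution recurred in 12 or more mice. The capital in the HCDR3 pair marks the base by which the variants differ.
IGHV9-3: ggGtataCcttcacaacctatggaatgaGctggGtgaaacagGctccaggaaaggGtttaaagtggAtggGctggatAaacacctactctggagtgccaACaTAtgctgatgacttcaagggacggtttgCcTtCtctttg
IGHV9-3 IGHJ1 ARDSNWYFDV: gCaagagatagtaactggtacttcgatgtc
IGHV9-3 IGHJ1 VRDSNWYFDV: gTaagagatagtaactggtacttcgatgtc

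The next set belongs to IGHV4-1, a gene with a higher share in the mutated class in all 3 forms of the data described below. Its V stretch also starts at CDR1, with capitals where 1 substitution was found in 12 or more mice and in at least 5% of mutated rows, and it is followed by the HCDR3 of the 2 rearrangements that most mice held in mutated form.
IGHV4-1: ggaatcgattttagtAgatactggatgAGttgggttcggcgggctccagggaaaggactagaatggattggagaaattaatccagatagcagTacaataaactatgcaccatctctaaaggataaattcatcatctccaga
IGHV4-1 IGHJ1 ASPNWDWYFDV: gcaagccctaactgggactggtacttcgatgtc
IGHV4-1 IGHJ1 ARLGYYGYFDV: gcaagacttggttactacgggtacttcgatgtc

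The last set shows what else the mismatch number counted. In IGHV1-69, IGHV2-6-1 and IGHV8-5 the capital marks a base that most IgM rows of every mouse carried and that counted as a mismatch. The read from mouse NC 3 (15 counts) matches IGHV1-53 at the start and IGHV1-55, the gene it was assigned to, at the end, and its capitals mark the 7 bases that differ from IGHV1-53. Over the stretch shown it has 5 mismatches to IGHV1-55.
IGHV1-69: ttcaagggcaagGccacattgactg
IGHV2-6-1: atcacatgcaccGtctcagggttct
IGHV8-5: tcaagatcaccaGtgtggacactgc
read joining IGHV1-53 to IGHV1-55: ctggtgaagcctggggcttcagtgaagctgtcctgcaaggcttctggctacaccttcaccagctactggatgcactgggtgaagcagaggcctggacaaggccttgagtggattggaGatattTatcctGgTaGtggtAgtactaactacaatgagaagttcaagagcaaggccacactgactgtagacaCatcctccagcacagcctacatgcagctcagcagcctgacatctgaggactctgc

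Another 3 features of the files moved with the class difference, and they set how the results below are given. The first was a mismatch between the mice and the germline reference. IGHV1-69, on chromosome 12 (GRCm38, 115623161 to 115623595, minus strand), had 80378 IgM rows of which 266 were unmutated, and a median of 96.1% of its rows per mouse carried the capital base shown above. IGHV2-6-1 had 5 unmutated rows among 14345 and IGHV8-5 had 1 among 9975, with the marked base in a median of 99.4% and 98.2% of rows. IGHV1S137, with 0 unmutated rows among 2959, differed at 8 positions, and the majority sequence of its rows was identical to the GENCODE transcript of Ighv1-67 over the stretch compared. That of IGHV2-6-1 was identical to Ighv2-6, and the marked base of IGHV8-5 is also in its own GENCODE transcript, while that of IGHV1-69 is not. In IGHV8-6, 172 of 3016 rows were unmutated and the most frequent mismatch number was 43. The most frequent mismatch number was 1 in IGHV1-69, IGHV2-6-1 and IGHV8-5, so that rows otherwise at germline fell into the class of exactly 1 mismatch that was left out. Since these 5 genes could have few unmutated rows, no primary fold is given for them.

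The second feature was reads that joined 2 germline V genes. A row counted as a join when a start from one germline V gene followed by an end from another of the same family left no mismatch. In the read printed above, base 1 to base 117 match IGHV1-53 and the bases from 75 on match IGHV1-55. On average 27.8% of mutated rows per mouse were joins, from 1.27% to 52.4%. The share was 35.3% among IGHV1 rows, the largest and most similar family, and 10.6% among the other families. Of the joins 98.1% were single counts, compared with 81.2% of the other mutated rows.

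**Figure D1:**
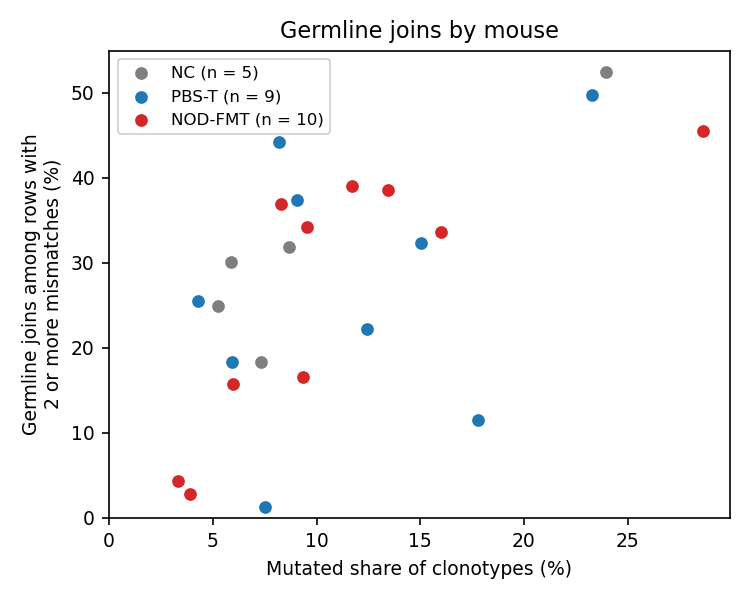
Percentage of rows with 2 or more mismatches that joined 2 germline V genes (vertical axis) against the mutated share of clonotypes (horizontal axis), 1 point for each of 24 mice, coloured by group. Joins ran from 1.27% to 52.4%, and NC 2, with a mutated share of 23.9%, is the highest point.

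The third feature was the single count itself. Somatic hypermutation is known to fall more densely in the CDRs than in the framework. The density of mismatches per base in CDR1 and CDR2 divided by that in the framework was 0.802 ± 0.127 (SD, n = 24) in rows with 1 mismatch and 1.19 ± 0.277 in mutated rows. It was 1.49 ± 0.185 in mutated rows that were not joins and 1.86 ± 0.209 in mutated rows of 2 or more counts, of which 5.92% were joins. Joins can also place mismatches in the CDRs, and the ratios are given as a description. The main comparisons are therefore given in 3 forms. In the primary form all rows enter. In the cleaned form recurrent reference mismatches are not counted as mutations, which left 422777 rows with 2 or more mismatches, and 122879 joins among them are removed. The 26 V genes whose most frequent mismatch number was then still not 0 are also left out, and 295387 mutated rows remained. In the cleaned form of 2 or more counts 49025 mutated rows remained. What part each feature had in a class difference was not tested beyond these values.

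The mutated class made up 11.03% ± 6.74 (SD, n = 24) of the clonotypes, with a minimum of 3.32%, a median of 8.85% and a maximum of 28.7%. In NC it was 10.2% ± 7.79 (lowest 5.27%, median 7.32%, highest 23.9%), in PBS-T 11.5% ± 6.20 (4.30%, 9.04%, 23.3%) and in NOD-FMT 11.02% ± 7.38 (3.32%, 9.46%, 28.7%). The 3 groups overlapped over nearly their whole range. The highest mice of NC and NOD-FMT, NC 2 and NOD-FMT 2, had the fewest counts of the 24 spleen libraries (86717 and 168907), and the part of depth in the share was not tested. NOD-FMT minus PBS-T was -0.476 points (exact permutation, two-sided, p = 0.883), smaller than the spread within either group. After cleaning, the means were 5.51% in NC, 7.04% in PBS-T and 6.49% in NOD-FMT (NOD-FMT against PBS-T, exact permutation p = 0.768).

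V gene usage differed widely between the classes. IGHV4-1 was higher in the mutated class in all 3 forms of the data, and the IGHV5, IGHV10 and IGHV2 families, each taken as a whole, were lower. Across the 101 V genes with enough clonotypes to test, 31 had a higher and 47 a lower share in the mutated class (edgeR quasi-likelihood test with the mouse as block, Benjamini-Hochberg adjusted over all genes tested), which is 30.7% and 46.5% of the genes tested. The 31 include the 5 reference-mismatched genes, whose primary calls follow from the reference, and 26 of the other 96 genes were higher (27.1%). The 96 still held rare genes with few unmutated rows, such as IGHV8-9 (0 of 100 IgM rows) and IGHV8-11 (2 of 71). The 27.1% may therefore not be free of calls that follow from the reference. With TMM factors, over the same 101 genes, the split was 37 higher and 39 lower. DESeq2 was run without the filter on low numbers, so not over the same 101 genes, and gave 47 higher and 36 lower. Each of these scalings moves the centre of all genes. Without them the median log2 ratio over the 101 genes was -0.21, and 40 genes lay above 0. Weighted by counts, 15.2% of genes were higher and 62.9% lower. In the cleaned form 19 of 95 genes were higher (20%) and 43 lower (45.3%), and in the cleaned form of 2 or more counts 13 of 71 were higher (18.3%) and 30 lower (42.3%). Rows of 2 or more counts without cleaning gave 20.8% higher and 54.5% lower. In all 3 forms IGHV4-1, IGHV1-78, IGHV1-12 and IGHV1-11 were called higher, and 16 genes were called lower. IGHV8-5 was also called higher in all 3, but its primary call was fixed by the reference, and with recurrent mismatches alone corrected its log2 ratio was 0.27 and was not called (adjusted p = 0.354). Between the primary and the cleaned form 3 genes were called in opposite directions, namely IGHV2-6-1, IGHV14-2 and IGHV14-3. Between the primary form and the cleaned form of 2 or more counts 6 were, namely IGHV2-6-1, IGHV1-54, IGHV2-3, IGHV6-3, IGHV8-8 and IGHV13-2. Apart from IGHV6-3 these genes are named after their values were seen. Weighted by counts IGHV4-1 was still called, at 1.87, while IGHV1-78 was at 0.41 (adjusted p = 0.108), IGHV1-12 at -0.05 and IGHV1-11 at -0.12, none of them called.

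IGHV4-1, which lies close to the D segments on chromosome 12 (113948282 to 113948796, minus strand) and was first known from galactan-binding antibodies, took 0.149% to 0.408% of unmutated clonotypes (median 0.261%). In the mutated class it took 0.118% to 2.16% (median 0.628%), with means of 0.259% ± 0.0688 and 0.819% ± 0.565 (SD, n = 24). The mutated share was the higher one in 23 of 24 mice. The log2 ratio was 1.36 ± 0.15 (SE, edgeR adjusted p = 2.93e-10), rising to 2.16 in the cleaned form and 2.90 in the cleaned form of 2 or more counts. The estimate was 1.37 in NC, 1.50 in PBS-T and 1.23 in NOD-FMT. Mutated IgG clonotypes of the same spleens carried IGHV4-1 at 1.14%, and unmutated IgD clonotypes at 0.183%.

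IGHV1-78 was higher in the mutated class by clonotypes, with 0.513% of unmutated and 0.902% of mutated clonotypes (log2 ratio 0.84 ± 0.11 SE, 23 of 24 mice higher) and 0.78 and 1.04 in the cleaned forms. Other IGHV1 genes named by the size of their change lost the call in the strictest form. IGHV1-77 (log2 ratio 1.00), IGHV1-80 (0.75) and IGHV1-53 (0.70) were all called higher, also after cleaning, but gave 0.29, 0.15 and 0.12 in the cleaned form of 2 or more counts, where edgeR's test did not call them. IGHV1-53, a member of the join printed above, had primary shares of 4.24% and 6.96%.

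Among the genes that fell, IGHV10-1 (114479005 to 114479451), one of the genes known from DNA-binding antibodies in mice, was at 1.897% ± 0.252 of unmutated clonotypes (1.41% to 2.44%) and at 0.663% ± 0.306 of mutated ones (0.299% to 1.61%). The mutated share was lower in every one of the 24 mice (log2 ratio -1.62 ± 0.11 SE, edgeR adjusted p = 8.06e-16), and remained lower in the cleaned form (-0.89) and in the cleaned form of 2 or more counts (-1.70). Of the named genes IGHV5-9-1 showed the largest fall in the primary form, with a log2 ratio of -1.90 ± 0.12. It stood at -1.40 and -0.95 in the cleaned forms, and in the last of these IGHV10-1 fell further. IGHV9-1 (-1.84), IGHV8-12 (-1.64), IGHV5-6 (-1.58) and IGHV5-17 (-1.44) were likewise called lower in all 3 forms. Unmutated IgD and mutated IgG clonotypes carried IGHV10-1 at 0.803% and 0.653%, both below unmutated IgM. For IGHV5-6 they stood at 0.589% and 0.906%, the other direction from IgM.

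IGHV9-3 fell from 3.14% to 0.939% of clonotypes (log2 ratio -1.87 ± 0.10 SE, lower in 24 of 24 mice), and its cleaned ratio was -1.15, but in the cleaned form of 2 or more counts the ratio was -0.02 and was not called. IGHV3-6, with a ratio of -1.57, moved in the same way to -0.09, and IGHV3-8 (-1.43) and IGHV9-4 (-1.40) also lost the call there, at -0.33 and -0.50.

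The plot of V gene ratios sets the primary and the stricter estimate of each gene side by side.

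**Figure D2:**
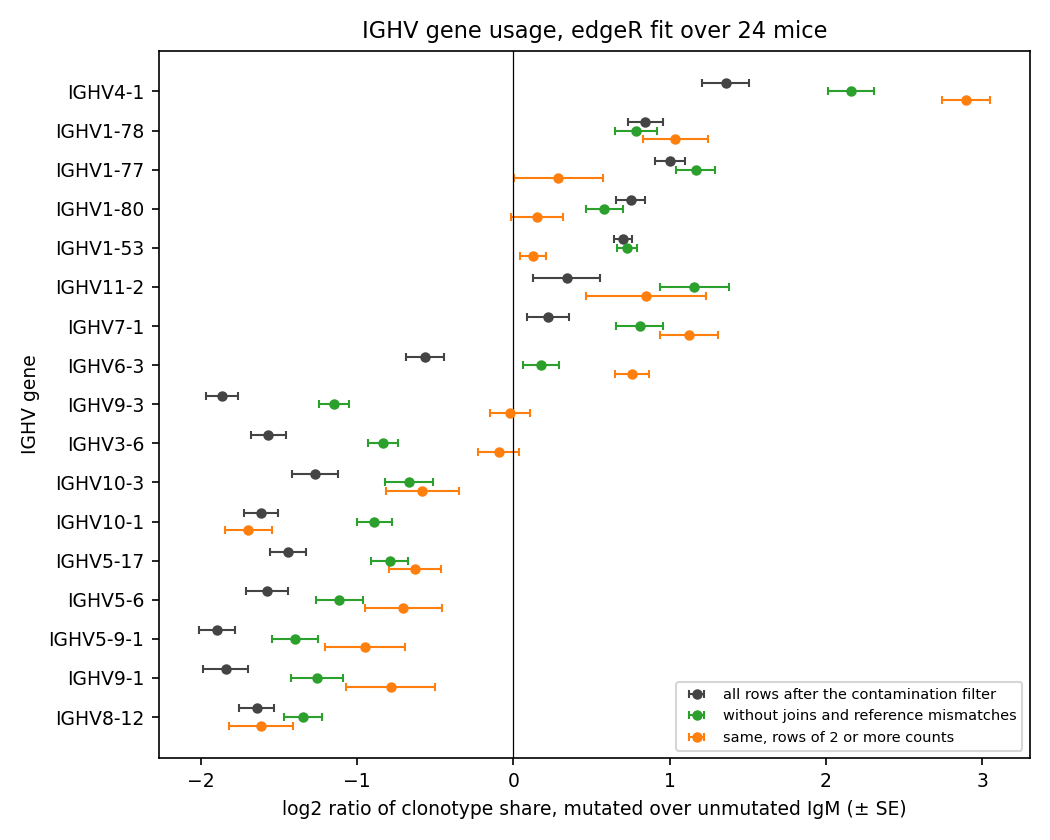
Log2 ratio of the share of clonotypes in the mutated over the unmutated class for the named V genes, from edgeR fits over 24 spleens, in the primary data, the cleaned data and the cleaned data of 2 or more counts, with standard errors. IGHV4-1 lies above 0 in all 3 and moves up with cleaning, while IGHV9-3 moves from -1.87 to -0.02.

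A list of V genes was followed separately, whatever their values. It held IGHV11, IGHV12 and IGHV7 genes together with IGHV10-1, IGHV10-3, IGHV6-3 and IGHV6-6, so it was not a list of natural IgM genes alone. Of 9 listed genes with enough clonotypes, 2 lay above 0 in the primary data and were not called, and 7 were called lower. IGHV10-1, IGHV10-3, IGHV6-3 and IGHV6-6 are among the 7. Of all 101 genes 46.5% were called lower and 30.7% higher. IGHV11-2, a phosphatidylcholine-binding B-1 gene, was at 0.0646% of unmutated and 0.0963% of mutated clonotypes (log2 ratio 0.34, adjusted p = 0.141), and its ratio was 1.16 (adjusted p = 1.33e-05) after cleaning and 0.85 (adjusted p = 0.052) in the cleaned form of 2 or more counts. Weighted by counts it was called lower, at -1.28 (adjusted p = 0.012). IGHV12-3, the other phosphatidylcholine gene tested, went the other way, from 0.0658% to 0.0280% (-1.44), and stood at -0.60 after cleaning. IGHV7-1, which encodes the classical phosphorylcholine antibodies, had a ratio of 0.22 (adjusted p = 0.136) and was called higher at 0.81 and 1.12 in the cleaned forms, and stood at -0.38 weighted by counts (adjusted p = 0.179). IGHV7-3 (-0.55), IGHV7-4 (-1.03), IGHV6-3 (-0.57), IGHV6-6 (-0.31) and IGHV10-3 (-1.27) were called lower. IGHV7-4 and IGHV10-3 were called lower after cleaning too, at -0.53 and -0.67. After cleaning IGHV7-3, IGHV6-3 and IGHV6-6 each stood at 0.18 and were not called, and IGHV6-3 was called higher (0.76) in the cleaned form of 2 or more counts. IGHV11-1 and IGHV7-2 had too few clonotypes to test.

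By family, IGHV1 and IGHV4 were higher in the mutated class and 10 families were lower, which is 13.3% and 66.7% of the 15 tested (sign-flip permutation test over 24 mice, adjusted over the families). IGHV1 rose from 58.2% to 73.4% (higher in 22 of 24 mice, adjusted p = 1.87e-05) in the primary data and from 58.8% to 65.5% after cleaning, but was lower in the cleaned form of 2 or more counts, at 51.5% and 47.7% (5 of 24 mice higher, adjusted p = 0.00156). After cleaning 40% of families were higher and 46.7% lower, and in the cleaned form of 2 or more counts 26.7% and 40%. IGHV5 fell from 8.29% to 3.43%, IGHV10 from 2.84% to 1.13% and IGHV2 from 6.22% to 4.59%, and these 3 were lower in all 3 forms. IGHV4 was higher in all 3, reaching 4.25% of mutated against 0.546% of unmutated clonotypes in the cleaned form of 2 or more counts, where each of the 24 mice showed the difference. IGHV6 turned from 4.43% and 3.60% in the primary data to 7.06% and 11.1% there (21 of 24 mice higher, adjusted p = 0.0002). IGHV14 turned from lower (4.63% and 3.68%) to higher after cleaning (4.47% and 5.91%) and to lower again in the cleaned form of 2 or more counts (4.56% and 3.22%).

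Over the 24 mice IGHJ1 was higher in the mutated class in all 3 forms of the data. IGHJ1, whose segment ends HCDR3 in tryptophan, tyrosine, phenylalanine, aspartate and valine, rose from 15.6% ± 0.475 to 17.1% ± 2.25 of clonotypes (higher in 21 of 24 mice, adjusted p = 0.000347). By group the rise was 0.341 ± 1.10 points in NC, 2.15 ± 2.20 in PBS-T and 1.67 ± 2.19 in NOD-FMT. NC 5 rose by 2.13 points and the other NC mice lay between -0.892 and 0.281, and whether the groups differ was not tested. IGHJ4, whose segment adds alanine, methionine, aspartate and tyrosine, fell from 26.6% ± 1.23 to 23.1% ± 1.22, lower in all 24 mice (adjusted p = 2e-05). IGHJ2 rose from 33.3% to 36.1% and IGHJ3 fell from 24.6% to 23.7%, so that all 4 genes were called, 50% of those tested in each direction. After cleaning all 4 kept their direction and IGHJ1 was at 15.6% and 17.5% (19 of 24 mice higher, permutation test, adjusted p = 0.00024). Weighted by counts 0 of the 4 genes were called, with IGHJ1 at 16.8% and 19.9% (16 of 24 mice higher, permutation test, adjusted p = 0.0874). In rows of 2 or more counts after cleaning, IGHJ1 stood at 15.1% and 20.0% (23 of 24 mice higher, adjusted p = 4e-05), IGHJ2 had turned to 37.8% and 35.0% (adjusted p = 0.00052), and IGHJ3 and IGHJ4 were not called (adjusted p = 0.171 and 0.161).

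HCDR3 length was shorter in the mutated class over all clonotypes. The mean per mouse ran from 10.99 to 11.65 amino acids (median 11.51) in the unmutated and from 10.82 to 11.76 (median 11.13) in the mutated class. The class means were 11.45 ± 0.171 and 11.15 ± 0.199 amino acids (SD, n = 24), and the difference within mice was -0.305 ± 0.163, negative in 23 of 24 mice (permutation p = 1e-05, the smallest that 100000 resamples can give). The exception was PBS-T 2, at +0.134. When the comparison was made within each V and J combination the difference was -0.320, and after cleaning it was -0.434. Clonotypes of up to 8 residues rose from 14.1% to 17.1% (22 of 24 mice higher, adjusted p = 4e-05) and those of 13 to 16 residues fell from 32.2% to 29.5% (2 of 24 mice higher, adjusted p = 0.00016). Clonotypes of 9 to 12 residues were at 51.1% in both classes.

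**Figure D3:**
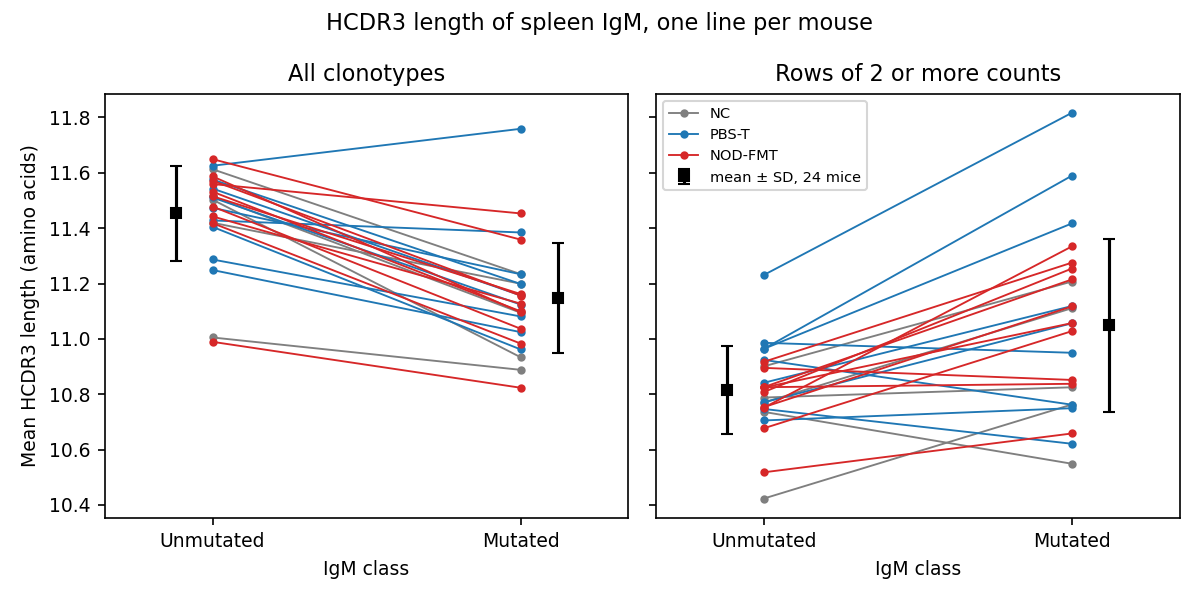
Mean HCDR3 length in amino acids of unmutated and mutated IgM clonotypes, 1 line for each of 24 mice coloured by group, over all clonotypes (left) and over rows of 2 or more counts without cleaning (right), with squares for the mean ± SD. On the left the mutated end is the lower one in 23 of 24 mice, and on the right it is the higher one in 19 of 24.

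The direction of the length difference followed the count of the clonotype. Single-count clonotypes, 85.3% of unmutated and 81.9% of mutated ones, had mean lengths of 11.57 and 11.19 (difference -0.384, shorter in 23 of 24 mice, permutation p = 1e-05). Clonotypes of 2 to 4 counts had lengths of 10.76 and 10.96 (difference 0.206, longer in 20 of 24 mice, permutation p = 0.0007), and those of 5 or more counts 10.82 and 10.98 (difference 0.162, longer in 17 of 24 mice, permutation p = 0.0077). The unmutated mean thus moved further between single and repeated counts than the mutated mean. In rows of 2 or more counts the means were 10.81 and 11.05 (difference 0.234, longer in 19 of 24 mice, permutation p = 0.00016), and after cleaning as well they were 10.83 and 11.02 (difference 0.188, permutation p = 0.00278). Other isotypes of the same spleens had longer loops. Unmutated IgM was shorter than unmutated IgD (11.76) by 0.306 ± 0.0845 and mutated IgM shorter than mutated IgG (11.70) by 0.547 ± 0.167, each in 24 of 24 mice (permutation p = 1e-05).

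By number of mismatches, mean HCDR3 length was 11.45 ± 0.171 at 0, 11.18 ± 0.163 at 1, 11.07 ± 0.181 at 2, 11.08 ± 0.221 at 3 to 4, 11.12 ± 0.212 at 5 to 9 and 11.35 ± 0.452 at 10 or more (SD, n = 24). The means from 2 to 9 mismatches lay within 1 SD of each other, and the order was not tested.

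The amino acid composition of HCDR3 differed in 14 of 20 residues. In the mutated class 8 residues were more and 6 less frequent, 40% and 30% of those tested. Tryptophan rose from 2.59% ± 0.0449 to 2.98% ± 0.173 of HCDR3 residues (higher in 23 of 24 mice, adjusted p = 6.67e-05) and phenylalanine from 5.64% to 6.00% (23 of 24). Cysteine, which is rare in mouse HCDR3, rose from 0.159% to 0.241% (23 of 24), valine from 3.88% to 4.03% (18 of 24) and isoleucine from 1.08% to 1.12% (16 of 24). Tyrosine, the most frequent residue, fell from 20.6% to 20.2% (2 of 24 higher), alanine from 13.6% to 13.2% (7 of 24) and methionine from 2.44% to 2.14% (0 of 24). These 8 residues kept their direction and their call in both cleaned forms, where 45% and 40% of residues were higher and 30% and 25% lower. In the cleaned form of 2 or more counts tryptophan stood at 2.59% and 3.25%, cysteine at 0.140% and 0.274%, alanine at 13.6% and 11.6% and tyrosine at 20.1% and 18.7%.

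Part of the composition is set by the V and J ends of the loop. V bases at the start of HCDR3 also count in the mismatch number, so the rule that set the classes itself enters the residues there, alanine and valine among them. With the first 2 and the last 4 residues of each HCDR3 left out, 4 residues were more and 4 less frequent (20% each way). Tryptophan rose from 3.48% to 4.16% in all 24 mice, and asparagine, phenylalanine and cysteine rose with it. The tryptophan of the IGHJ1 end lies just before the last 4 residues and so was not left out. IGHJ1 was itself more frequent in the mutated class, and its part in the tryptophan value was not tested. Proline fell from 3.33% to 3.07% in all 24 mice, and tyrosine, leucine and glutamate fell with it. Methionine, at 0.385% and 0.387%, and alanine, at 3.47% and 3.48%, were not called in the middle of the loop (adjusted p = 0.923 each), nor were valine (adjusted p = 0.318) and isoleucine (adjusted p = 0.908).

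**Figure D4:**
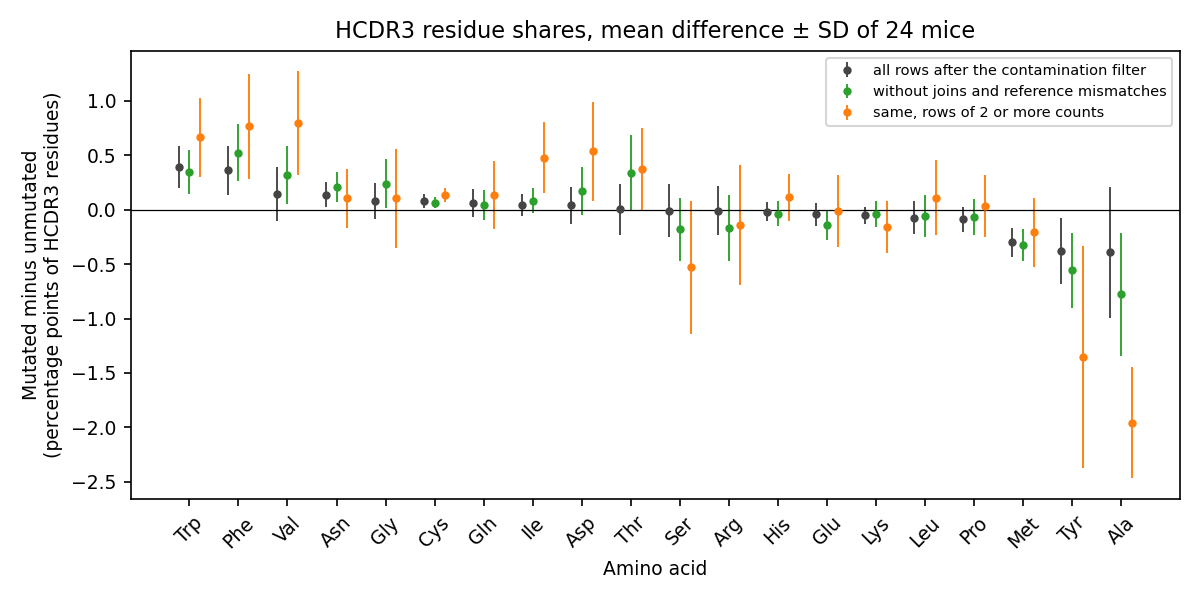
Difference in the percentage of HCDR3 residues, mutated minus unmutated, for the 20 amino acids, as the mean ± SD over 24 mice, in the primary data, the cleaned data and the cleaned data of 2 or more counts. Tryptophan, phenylalanine, cysteine, valine and isoleucine lie above 0 in each, and tyrosine, alanine and methionine below.

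Net charge per HCDR3, counted as lysine and arginine minus aspartate and glutamate, was -0.269 in both classes (difference 0.00045, permutation p = 0.953). In rows of 2 or more counts the difference was -0.0943, lower in 20 of 24 mice (permutation p = 2e-05), and after cleaning as well it was -0.0950. In the cleaned form of all rows it was -0.0167 (permutation p = 0.0866). Mean hydropathy per residue on the Kyte-Doolittle scale was -0.665 and -0.666 (difference -0.00095, permutation p = 0.771). It was higher in the mutated class after cleaning, by 0.0131 (16 of 24 mice, permutation p = 0.00878), in rows of 2 or more counts, by 0.0263 (19 of 24 mice, permutation p = 0.0115), and in both together, by 0.0362 (20 of 24 mice, permutation p = 0.006).

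Mutated clonotypes carried more counts in sum, but their single sequences did not pass the test. The mean count per clonotype was 2.34 ± 0.402 in the unmutated and 5.23 ± 3.81 in the mutated class. The filter on shared sequences had removed mostly unmutated rows, and these means depend on it. The log2 ratio within mice ran from -0.33 to 2.84 (median 0.77) and averaged 0.88 ± 0.86 (SD, n = 24), above 0 in 20 of 24 mice (permutation p = 5e-05). The 4 mice below 0 by clonotype were NC 2, PBS-T 6, PBS-T 7 and NOD-FMT 2, whose mutated shares of 23.9%, 15.1%, 23.3% and 28.7% lay at the upper end. Clonotypes of 2, of 3 to 4 and of 5 to 9 mismatches carried 4.60, 5.29 and 4.53 counts, and those of 10 or more carried 1.91 ± 0.810, below the unmutated mean. After cleaning the log2 ratio by clonotype was 1.36, above 0 in 23 mice. A mutated clonotype can pool several V sequences and an unmutated one cannot, and the count per distinct sequence was 2.15 ± 0.360 in the unmutated and 2.64 ± 1.06 in the mutated class. That log2 ratio was 0.20 ± 0.54, above 0 in 15 of 24 mice (permutation p = 0.0816), and 0.46 ± 0.50 after cleaning, above 0 in 18 of 24 mice (permutation p = 0.00038). Clonotypes of 10 or more counts made up 2.21% of unmutated and 4.65% of mutated clonotypes.

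Mutated clonotypes were tied to unmutated ones of the same mouse. Of the mutated clonotypes, 17.3% ± 2.90 also had an unmutated row in their own library, compared with 1.81% ± 0.319 in the unmutated rows of another mouse, a difference of 15.5 percentage points present in 24 of 24 mice (permutation p = 1e-05). With joins removed the difference was 18.8 points, and in rows of 2 or more counts as well it was 27.9 points. When each class of each mouse was thinned to 2038 clonotypes, 3.56% of mutated and 0.719% of unmutated clonotypes occurred in the same class of another mouse, a difference of 2.85 points in the same direction in all 24 mice (permutation p = 1e-05). The filter on shared sequences had removed 4.84% of unmutated rows per mouse (2.57% to 7.36%) and 0.101% of mutated rows (0.0283% to 0.224%), and without it the difference was 2.22 points (permutation p = 1e-05). The shares were 3.94% and 0.442% after cleaning, thinned to 1386 clonotypes, and in the cleaned form of 2 or more counts, thinned to 166, the difference was 6.21 points (permutation p = 1e-05 each). This measure is not independent between mice, since a shared clonotype counts in each. Thinning to 1 size also keeps a smaller part of the unmutated class, which held 14609 to 368300 clonotypes per mouse, than of the mutated class. Without thinning the order was the other one. Over all mice 94.3% of distinct unmutated and 97.0% of distinct mutated clonotypes were found in 1 mouse only.

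Several of the rearrangements held by the most mice in one class were also held widely in the other. Unmutated IgM was led by IGHV2-9 IGHJ4 AKRGSSYAMDY (23 of 24 mice), IGHV7-1 IGHJ1 ARDYYGSSYWYFDV and IGHV5-17 IGHJ4 ARGLRAMDY (21 mice each), IGHV10-1 IGHJ4 VRRGYAMDY (20) and IGHV2-9 IGHJ4 AKRGSNYAMDY (19). In that order, 18, 19, 0, 8 and 10 mice held them in mutated form. IGHV5-17 ARGLRAMDY was written with 26 different HCDR3 nucleotide sequences in 40 rows and had 0 mutated rows, and IGHV10-1 VRRGYAMDY with 36 in 90 rows. These numbers were counted after removal of the sequences identical in 3 or more spleens, most of which were unmutated, and so depend on that filter. Mutated IgM was led by the reference-mismatched IGHV2-6-1 IGHJ1 ARHYGSSYWYFDV (24 mice) and ARHYYGSSYWYFDV (22 mice), of whose 304 and 216 rows 34 and 26 stayed mutated once the recurrent base was no longer counted. The others were IGHV9-3 IGHJ1 ARDSNWYFDV (23 mice) and VRDSNWYFDV (22 mice), and IGHV7-1 IGHJ1 ARDNWDWYFDV (20 mice). Of these, ARDSNWYFDV and ARDNWDWYFDV were each held in unmutated form by 19 mice. The last was written with 1 HCDR3 nucleotide sequence in 537 of 598 rows, found in 24 mice. Of its rows 78 were unmutated, 406 had exactly 1 mismatch and 114 were mutated, counted after the same filter.

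The IGHV9-3 rearrangement with the HCDR3 ARDSNWYFDV or VRDSNWYFDV (gene at 114140692 to 114141122 on chromosome 12) was the most shared mutated IgM whose gene matched the reference. It had 1069 rows without insertions or deletions and 4327 counts, and 788 of those rows, in 23 mice, were mutated. PBS-T 8 had 0 rows. The mice held between 13 and 49 mutated rows in NC (median 32), between 0 and 59 in PBS-T (median 23) and between 24 and 50 in NOD-FMT (median 39), so the groups overlapped. The 788 rows were 786 distinct sequences, of which 2 were found in more than 1 mouse. Sequences identical in 3 or more spleens had been removed beforehand.

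The same replacements recurred in it from mouse to mouse. Positions are counted from 1 at the first base of CDR1. C215T, which changes the first HCDR3 residue from alanine to valine and separates the printed HCDR3 pair, was present in 36.2% of mutated rows and in 22 of 23 mice, against 5.23% of the 3174 other mutated IGHV9-3 rows. Rows of the rearrangement were taken by having alanine or valine at this residue, so the selection enters its share. The other IGHV9-3 rows could hold any residue there. Since C215T itself counts as a V mismatch, VRDSNWYFDV could hardly occur in the unmutated class. Of its 288 rows 206 carried 5 or more mismatches. G34A (valine to methionine) was present in 14.5% of rows and 18 mice, and G71C (glycine to alanine) in 11.4% and 19 mice, both in framework 2 (FR2). A104G (tyrosine to cysteine, FR3) was at 10.2% in 15 mice and C8T (threonine to isoleucine, CDR1) at 9.39% in 19 mice. In the other mutated IGHV9-3 rows these 4 stood at 4.16%, 2.36%, 1.89% and 3.59%. T103A, a tyrosine to asparagine change, was at 5.33% against 0.473%. These positions were chosen for their recurrence in the rearrangement, so the comparison is a description.

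IGHV4-1 showed recurrent replacement across many rearrangements. A mouse held 18 to 106 mutated IGHV4-1 clonotypes (mean 56.8) and on average 234 unmutated ones. Each mutated clonotype comprised 4.19 ± 1.11 distinct rows, compared with 1.14 ± 0.0667 in the unmutated class, with the mutated value higher in each of the 24 mice. A mutated clonotype can hold several V sequences where an unmutated one can hold 1, which enters this difference. T93A, a serine to arginine change in CDR2, was present in 27.9% of mutated rows and in 23 of 24 mice, and T93G, which encodes the same change, in 5.92% of rows and 21 mice. Either was found in 32.0% ± 14.8 of a mouse's mutated IGHV4-1 clonotypes, from 2.44% to 60%. Changes in and beside CDR1 were G29C (serine to threonine, 6.34%, 19 mice), A28G (serine to glycine, 6.28%, 15 mice) and A16G (arginine to glycine, 5.22%, 22 mice).

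**Figure D5:**
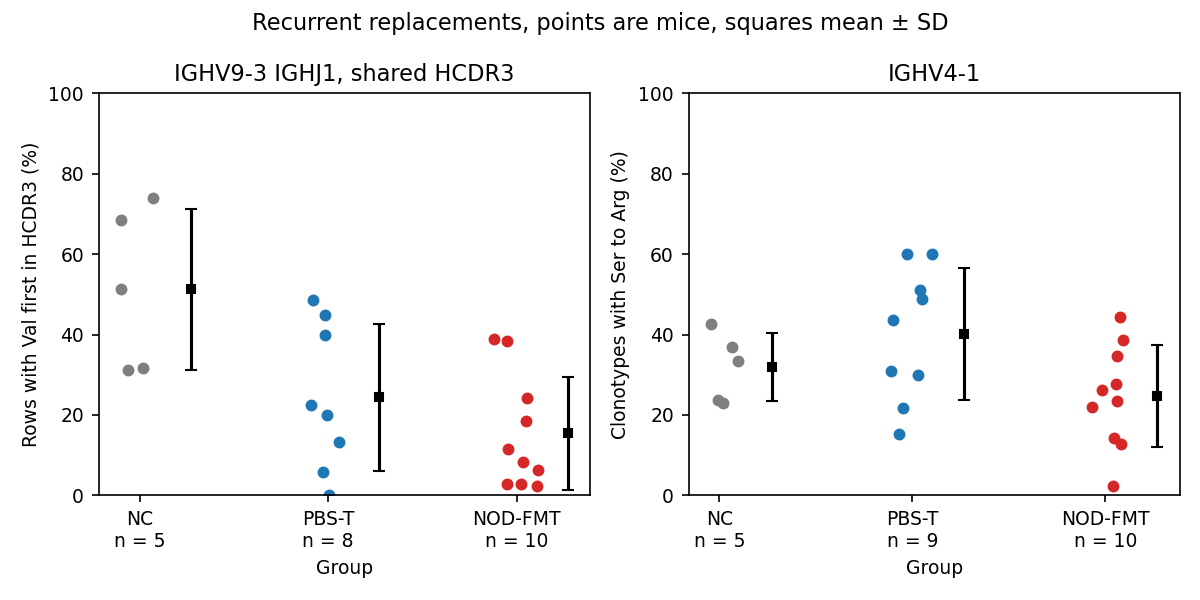
Left, the percentage of rows of the shared IGHV9-3 IGHJ1 rearrangement with valine as first HCDR3 residue, and right, the percentage of mutated IGHV4-1 clonotypes with the serine to arginine change in CDR2, 1 point a mouse by group with squares for the mean ± SD. The valine form ran from 31.2% to 74.1% in NC, from 0% to 48.5% in PBS-T and from 2.25% to 38.9% in NOD-FMT, and the arginine change from 2.44% to 60% over all mice.

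The HCDR3 of mutated IGHV4-1 also differed from the unmutated. The run glycine, tyrosine, tyrosine, glycine was in 21.5% ± 13.1 of mutated and 5.26% ± 2.65 of unmutated IGHV4-1 clonotypes and was more frequent in the mutated class in 21 of 24 mice. IGHJ3 was used by 32.6% and 21.1%, higher in 17 of 24 mice. The loops averaged 11.2 and 11.7 residues. IGHV4-1 IGHJ1 ASPNWDWYFDV was held in mutated form by 10 mice (40 rows, 60 counts). ARLGYYGYFDV was held in mutated form by 7 mice (135 rows) and in unmutated form by 8 (109 rows). The motif and the clonotypes were chosen after their values were seen and were not tested.

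By treatment group the class differences in length and counts did not pass the test. The length difference was -0.341 ± 0.177 in NC, -0.242 ± 0.188 in PBS-T and -0.345 ± 0.127 in NOD-FMT (NOD-FMT minus PBS-T -0.103, exact permutation p = 0.176). The log2 ratio of counts was 0.79 ± 0.71, 0.98 ± 1.03 and 0.84 ± 0.84 (NOD-FMT minus PBS-T -0.15, exact permutation p = 0.731). With edgeR's test of class by group, 0 of 101 V genes (0%) passed at an adjusted 0.05, 7 (6.93%) had an unadjusted p below 0.05, and limma likewise called 0. After cleaning 3 of 95 genes passed, which are named here after their values were seen. For IGHV8-5, one of the reference-mismatched genes, the log2 ratio of NOD-FMT minus that of PBS-T was 2.17 ± 0.43 (SE, edgeR adjusted p = 0.000698), for IGHV6-4 it was 3.60 ± 1.07 and for IGHV1-61 -0.96 ± 0.28 (adjusted p = 0.0491 each). IGHV6-4 is a rare gene, with 185 IgM rows over all mice before cleaning, of which 117 were unmutated. With 2 or more counts 4 of 77 genes passed, and 4 of 71 after cleaning as well. IGHV1-59, IGHV1-76 and IGHV5-9 were among the 4 in both, with IGHV6-6 before and IGHV8-5 after cleaning.

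The class difference in net charge was 0.0177 ± 0.0226 in NOD-FMT and -0.0179 ± 0.0404 in PBS-T, 0.0356 apart (exact permutation p = 0.0277, 0.083 adjusted over the 3 pairs of groups). It lay above 0 in 8 of 10 NOD-FMT and 3 of 9 PBS-T mice. After cleaning the groups were 0.0506 apart (exact permutation p = 0.00512, adjusted 0.0154), and NOD-FMT minus NC was 0.0272 in that form (exact permutation p = 0.278). The cleaned class difference was 0.00788 ± 0.0298 in NOD-FMT, above 0 in 6 of 10 mice. In PBS-T it was -0.0427 ± 0.0376, above 0 in 2 of 9 mice, so NOD-FMT lay nearer 0 than PBS-T. The difference in hydropathy, a group comparison added after its values were seen, was -0.0116 ± 0.00763 in NOD-FMT, below 0 in 9 of 10 mice. It was 0.00667 ± 0.0179 in PBS-T and 0.00663 ± 0.0136 in NC (NOD-FMT minus PBS-T -0.0183, exact permutation p = 0.00752, adjusted 0.0113). The ranges of the groups overlapped in both measures.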

How the data were processed

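Heavy chains of 24 spleens were analysed, from which 3399074 IgM rows were used. The members, lists and tests were chosen with earlier results of these data known. The authors merged reads with PEAR, grouped them by molecular identifier (Clustal Omega) and annotated them with IgBLAST, while the germline release they used is not given in the sources used here. The deposited counts are consensus counts per sequence (duplicate_count), the deposited V mismatch number is a count of bases that differ from the assigned gene, and the labels name the build mm10. A deposited frequency, the fraction of a library's counts in each row as the authors computed it, was only read as a check. Depth is set by the counts given in the report, and the mutated class held 2038 to 48933 clonotypes per mouse.

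Nucleotide sequences identical in 3 or more spleens were removed, which took 74.3% of unmutated counts in PBS-T 6 and 8.56% to 17.9% elsewhere. Majority sequences of unmutated rows (99 V genes) served as germline. From 45 bases before to 200 after the start of CDR1, 94 of the 96 with a GENCODE M21 transcript were identical to it. Any mismatched base in more than 10% of a gene's rows in 20 or more mice was called a recurrent mismatch. The cleaned data also leave out 26 V genes whose most frequent mismatch number was not 0 after this correction.

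Classes were compared within mice by two-sided sign-flip permutation (100000 resamples, exact within groups) and groups by exact permutation over all splits, with Benjamini-Hochberg adjustment. V genes were tested on clonotype numbers with edgeR 4.0.16 in R 4.3.3 (glmQLFit, filterByExpr, mouse and class in the model, library size the class total), with DESeq2 1.42.0 and limma 3.58.1 as alternatives. Python 3.11.15, numpy 2.4.6, pandas 2.3.3 and scipy 1.17.1 were used, and the permutation tests, the join call and the edgeR class test were tested on simulated data. Without a simulated difference the sign-flip test called 4% and the group permutation 8%. The edgeR class test called 48% of 1.25-fold and 100% of 2-fold changes. All simulated joins were found, and 0% of reads with 4 random mutations were called joins. Reads with fewer random mutations were not simulated. The mouse is the replicate. Eligible V genes passed an adjusted 0.05, with at least 0.5% of clonotypes in a class and 1 direction in 20 or more mice. Named V genes were the 10 largest and 10 smallest log2 ratios among them, plus the separate list of V genes. Named clonotypes were the 5 held by the most mice in each class. Lacrimal gland libraries were not analysed here. Samples shared replicate numbers between groups, and since correlations of same-numbered deviations ran from -0.33 to 0.51 the numbers were not used as pairs.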

Additional observations from a re-analysis of the deposited data

Results flagged for a closer look

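Single mice stood apart from their group in 6 of 48 group and measure combinations by Dixon's test, which chance alone flags about 1 time in 20. The mutated share of clonotypes was 23.9% in NC 2, with the next NC mouse at 8.66%, and 28.7% in NOD-FMT 2, with the next at 15.99%. After joins and reference mismatches were removed NC 2 still stood at 11.8% against 4.80% in the next mouse. The largest unmutated clonotype took 50.5% of unmutated counts in PBS-T 6 (next 11.2%) and 4.21% in NOD-FMT 3 (next 2.39%). The largest mutated clonotype took 24.9% of mutated counts in NC 3 (next 5.70%). PBS-T 6 is also the library that lost most counts to the filter on shared sequences, and the part of this in its value was not tested. NC 2 and NOD-FMT 2 had the fewest counts of the 24 spleen libraries, 86717 and 168907.

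The class difference in hydropathy, compared between groups after its values were seen, differed between NOD-FMT and both control groups. The gap was -0.0183 against PBS-T and -0.0182 against NC (exact permutation, adjusted p = 0.0113 each). After cleaning it was -0.0276 and -0.0332 (exact permutation, adjusted p = 0.00403 and 0.000999), with adjustment over the pairs of groups only. The cleaned class difference itself was -0.00416 ± 0.00923 in NOD-FMT, below 0 in 6 of 10 mice. It was 0.0234 ± 0.0268 in PBS-T and 0.0291 ± 0.0167 in NC, so NOD-FMT lay nearer 0 than both control groups. The class difference in net charge differed between NOD-FMT and PBS-T by 0.0506 after cleaning (exact permutation, adjusted p = 0.0154), whereas the primary difference of 0.0356 did not pass the adjustment (exact permutation, adjusted p = 0.083). In the cleaned form of 2 or more counts the difference in charge was 0.0432 (exact permutation p = 0.189), and no group value for hydropathy is given in that form. Arginine enters both measures, so they are not independent. Its primary class difference was 0.106 points in NOD-FMT, -0.142 in PBS-T and 0.0034 in NC, and its part was not tested.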

How the results depend on the processing

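Of the class and group results, 163 recomputed values kept their direction and side of the threshold, 26 reversed, 19 moved, 7 became weaker and 2 stronger. "Cleaned" again means joins and reference mismatches removed, and "2 or more" means rows of 2 or more counts. The alternatives named cleaned, recurrent mismatches only, joins with 1 extra mismatch and counts per distinct sequence were added after seeing the data. The cause of each change below was not tested.

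Length reversed with 2 or more (0.234, cleaned 0.188). The group difference in length reversed when weighted by counts (0.0767), with 2 or more (0.0668) and cleaned with 2 or more (0.135). Charge, near 0, reversed with sequences in 2 mice removed (-0.00158), unique sequences (-0.00905), 5 or more mismatches (-0.0119), clonotypes of both classes left out (-0.00162), 2 or more (-0.0943), recurrent mismatches not counted (-0.0115), cleaned (-0.0167), joins with 1 extra mismatch (-0.0221), cleaned with 2 or more (-0.0950), within V and J (-0.00818) and thinned to equal depth (-0.0146), and was called in the middle of the loop (0.0235). Hydropathy reversed with no filter (0.00537), unique sequences (0.00874), weighting (0.0287), clonotypes of both classes left out (0.00243), 2 or more (0.0263), cleaned (0.0131), joins with 1 extra mismatch (0.0142), cleaned with 2 or more (0.0362) and the middle (0.0123), and was called at 5 or more mismatches (-0.0145). The group difference in charge lost its unadjusted call with unique sequences (0.0330), weighting (0.0498), 2 or more (0.0321), cleaned with 2 or more (0.0432), thinning (0.0301) and the replicate block (0.0339, exact permutation p = 0.0547). The group difference in counts was 0.0289 with no filter. The class difference in counts was 0.20 per distinct sequence (permutation p = 0.0816).

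Residues called higher numbered 4 when weighted, 5 at 5 or more mismatches and 4 in the middle, and lower 3 when weighted. IGHJ genes called numbered 0 when weighted and 2 with 2 or more, cleaned or not. V genes called higher numbered 13 cleaned with 2 or more, 19 cleaned, 16 with 2 or more, 16 weighted, 51 with no filter on low numbers and 47 with DESeq2, and lower 30 cleaned with 2 or more. Genes called by class and group numbered 1 with recurrent mismatches not counted, 3 cleaned, 2 with joins of 1 extra mismatch, 4 cleaned with 2 or more and 4 with 2 or more. Among named items the reversals with a call in either form were IGHV1-77 weighted (-0.10), IGHV11-2 weighted (-1.28), IGHV6-6 cleaned (0.18) and cleaned with 2 or more (0.21), IGHV7-3 cleaned (0.18), and IGHV6-3 cleaned (0.18), cleaned with 2 or more (0.76) and weighted (0.094) on the log2 scale. Uncalled in both forms, IGHV7-1 turned to -0.38 weighted and -0.29 at 5 or more mismatches, and IGHV11-2 to -0.38 at 5 or more. In percentage points the reversals with a call, cleaned with 2 or more, included IGHJ2 (-2.74), IGHV1 (-3.80), IGHV6 (4.09), IGHV13 (0.518), histidine (0.114), leucine (0.109) and proline (0.0341). Cleaned, they included IGHV6 (1.05), IGHV7 (0.651), IGHV13 (0.0427) and IGHV14 (1.43). Called only in the primary form, IGHJ2 reversed when weighted (-0.750). Alanine (0.0070), methionine (0.0021) and glutamine (-0.0335) did so in the middle of the loop.

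Leaving out 1 mouse at a time, 438 recomputed values kept their direction and side of the threshold, 15 reversed and 3 became weaker. The group difference in charge ran from 0.0283 to 0.0446, that in counts from -0.312 to 0.0839, that in mutated share from -2.44 to 0.996 and the class difference in charge from -0.00263 to 0.00379. The class difference in length ran from -0.324 to -0.294. With the replicate block the group differences were -0.744 in mutated share, -0.0932 in length and -0.09 in counts, and without the mouse as block 29 V genes were higher and 40 lower. The alternative for rows with several V genes gave no value because no row had more than 1.

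Depth limits these results, since 85.3% of unmutated and 81.9% of mutated clonotypes were single counts and the cleaned 2 or more form rests on 166 to 1864 mutated clonotypes per mouse.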

Other observations

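The share of the valine form among the rows of the shared IGHV9-3 IGHJ1 rearrangement was compared between groups after its values were seen. It was 51.3% ± 20.0 in NC (n = 5), 24.4% ± 18.2 in the 8 PBS-T mice with rows and 15.4% ± 14.2 in NOD-FMT (n = 10). The mice of NC were at 68.5%, 31.2%, 74.1%, 31.6% and 51.3%. NOD-FMT lay 35.9 percentage points below NC (difference -35.9, exact permutation p = 0.00233, adjusted over the 3 pairs 0.00699) and PBS-T 27.0 below (difference -27.0, exact permutation p = 0.0334, adjusted 0.0501), while NOD-FMT and PBS-T differed by -8.96 (exact permutation p = 0.252). Of the 3 pairs only NOD-FMT against NC passed after adjustment, and each mouse with rows had 16 to 89 of them.

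The serine to arginine change in CDR2 of IGHV4-1 was found in 31.9% ± 8.45 of mutated IGHV4-1 clonotypes in NC, 40.2% ± 16.4 in PBS-T and 24.7% ± 12.7 in NOD-FMT. The difference of -15.5 percentage points between NOD-FMT and PBS-T did not pass the adjustment (exact permutation p = 0.0343, adjusted 0.103).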
